A study of Mus musculus with 6 samples.

Results

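The replication-dependent histone genes of the mouse were followed in the olfactory epithelium of newborn pups that lack Atf5, a leucine-zipper transcription factor. Members were the genes whose symbol places them in the H1, H2A, H2B, H3 or H4 gene clusters, and that were named alone by at least 1 probe set of the array. This gave 27 genes of 19937 measured, with 5 of H1, 4 of H2A, 9 of H2B, 3 of H3 and 6 of H4. Another 36 histone genes were named on the array only together with others, by 22 shared probe sets that are described separately. Homozygous Atf5-/- pups were set against Atf5+/+ pups, both of strain C57BL6 and from crosses of heterozygous parents, at postnatal day 0. Each genotype had 3 samples, each pooled from the septa and turbinates of 3 pups and measured on 1 array. How the Atf5 allele was made is not given in the sources used here.

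Histones are the proteins around which DNA is wound. Pairs of H2A, H2B, H3 and H4 form the nucleosome core, and H1 binds the linker DNA between cores. Most of their genes lie in clusters, have no introns and are transcribed chiefly in S phase, when new DNA has to be packed, and their mRNAs end in a stem-loop in place of a poly(A) tail. In the olfactory epithelium, the cells that pass through S phase include the basal progenitor cells that replace sensory neurons throughout life. Mature neurons have left the cell cycle. A few genes of the clusters are known for other uses. H1f6, H2ac1 and H2bc1 are histones of the testis, and H2bc21 encodes the H2B variant known as H2BE, which in the mouse is made in mature olfactory sensory neurons and varies with their activity and lifespan.

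Array medians lay between 8.67 and 8.72 on the log2 scale, and correlations between arrays over all probe sets were 0.992 to 0.994 within a genotype and 0.988 to 0.992 between genotypes. Atf5 was at 9.43, 9.44 and 9.50 on the knockout arrays and at 10.54, 10.96 and 10.63 on the wild-type arrays, a fall of the knocked-out gene with a log2 change of -1.25 (SE 0.10, adjusted p = 0.000499). Markers of mature olfactory neurons had values on all arrays, but so did every probe set, and the tissue label was not tested. In the knockout 7 of 8 of these markers fell, against 3.24% of all genes. Their list means were 9.34, 9.48 and 9.35 on the knockout arrays and 11.15, 10.97 and 11.02 on the wild-type arrays.

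Of the 27 histone genes, 1 rose and 1 fell in the knockout, tested by limma at an adjusted p under 0.05. H2ac4, a core H2A gene, was 1.60-fold higher, and H2bc21 was 1.72-fold lower. Among all genes 3.74% passed, of which 0.502% of all genes rose and 3.24% fell, and 1 call in each direction is too few to set the histone genes apart from that background. The other 25 did not pass the test. Changes below the threshold nevertheless lay mostly on one side of 0. A change above 0 was measured for 24 of the 27 histone genes, against 53% of all genes, and the median log2 change was 0.16 for the histone genes and 0.01 for all genes. An unadjusted p under 0.05 was found for 9 histone genes, against 16.1% of all genes, with 8 of them higher and 1 lower in the knockout. The groups did not overlap for 9 histone genes that were higher on every knockout array (10.8% of all genes) and for 1 that was lower (10.3% of all genes). Many histone genes have nearly the same coding sequence, so a probe set that names 1 of them may also read its relatives, and changes of single members are uncertain to that extent.

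**Figure D1:**
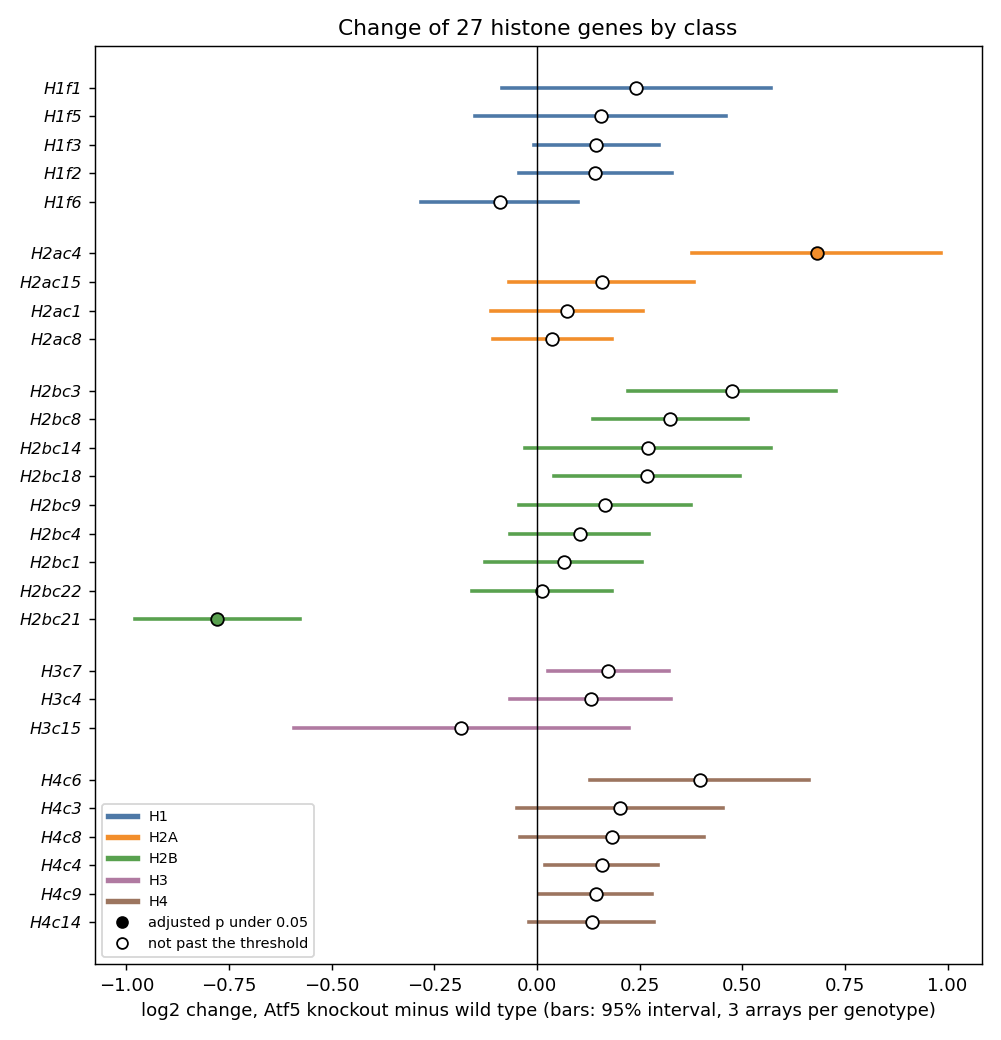
Log2 change (knockout minus wild type, x axis) of each of the 27 histone genes, ordered within classes H1, H2A, H2B, H3 and H4. Bars are 95% intervals from 3 arrays per genotype, and filled points passed at an adjusted p under 0.05. H2bc21 stands alone at -0.78, H2ac4 lies at 0.68, and the other 25 points lie between -0.18 and 0.48.

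H2bc21 was the member that fell. Its level was 10.13, 10.17 and 9.98 on the knockout arrays, against 11.03, 10.87 and 10.72 on the wild-type arrays. Every knockout array was below every wild-type array, and the gap was wider than the spread within either genotype. The log2 change was -0.78 (SE 0.09, adjusted p = 0.00192, n = 3 arrays per genotype), or 1.72-fold lower with a 95% interval of 1.49 to 1.97. Without any 1 array the change stayed between -0.85 and -0.70 and passed each time, with adjusted p values up to 0.00976. Markers of mature olfactory neurons fell further. Omp, a marker protein of mature olfactory neurons, changed by -2.23 (SE 0.14, adjusted p = 0.000103), and Gnal, which encodes the G protein of the odour response, by -2.36 (SE 0.08, adjusted p = 2.12e-06). Stoml3 and Cnga2, a stomatin-like protein of sensory cilia and a subunit of the odour-response channel, changed by -2.57 (SE 0.17, adjusted p = 0.000139) and -1.93 (SE 0.14, adjusted p = 0.000249). In tissue samples, fewer neurons and less H2bc21 mRNA per neuron cannot be told apart. The part of the lower neuronal markers in the H2bc21 result was not tested.

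The 4 nearest measured neighbours of H2bc21 in the gene order of chromosome 3 were looked at after the H2bc21 value was seen, and 1 of them passed. The histone gene H3c15 next to it did not pass, with a log2 change of -0.18 (SE 0.18, adjusted p = 0.691). Farther on the same side, the histone gene H4c14 was at 0.13 (SE 0.07, adjusted p = 0.376). On the other side, Bola1, a mitochondrial iron-sulphur cluster factor, was at -0.05 (SE 0.06, adjusted p = 0.732). Sv2a, a synaptic vesicle glycoprotein of neurons beyond Bola1, fell by 0.41 (SE 0.07, adjusted p = 0.00905).

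**Figure D2:**
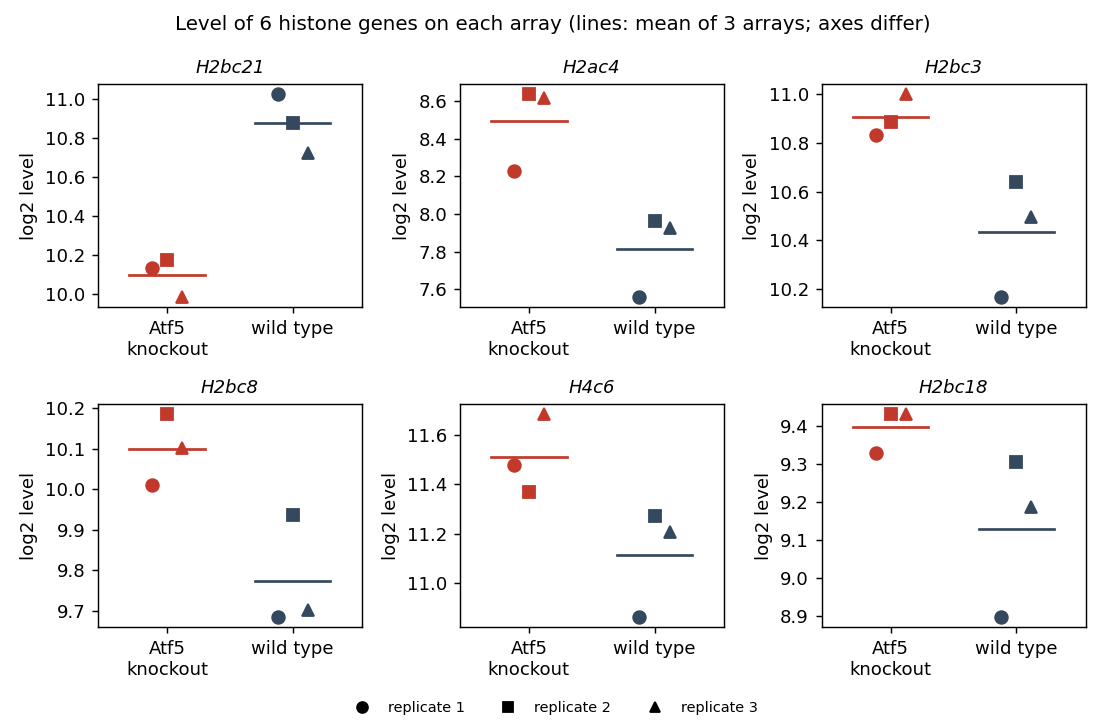
Log2 level (y axis, a scale for each panel) of 6 histone genes on each of 3 knockout and 3 wild-type arrays, with horizontal lines at the group means and symbols by replicate number. H2bc21 is lower on all knockout arrays, and H2ac4, H2bc3, H2bc8, H4c6 and H2bc18 are higher on all knockout arrays, with wild-type replicate 1 the lowest array for these 5 genes.

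H2ac4, which encodes a core H2A protein, was the member that rose. It was at 8.23, 8.64 and 8.62 on the knockout arrays and at 7.56, 7.96 and 7.92 on the wild-type arrays. The lowest knockout array was above the highest wild-type array, by a margin smaller than the spread within each genotype. The log2 change was 0.68 (SE 0.13, adjusted p = 0.0238), with a 95% interval of the fold from 1.30 to 1.98. The adjusted p was 0.104 when knockout replicate 2 was left out, 0.0738 when knockout replicate 3 was, and 0.0718 when wild-type replicate 1 was, so that the call was lost in these 3 cases. A shared probe set naming 19 symbols, H2ac4 among them, changed by 0.09 (SE 0.09) with overlapping groups. It did not pass by limma when the shared probe sets were added to the fit (adjusted p = 0.703).

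The gene next to H2ac4 on chromosome 13, H2bc3, encodes H2B, the partner of H2A in the nucleosome core, and had the next largest change. It was at 10.83, 10.89 and 11.002 in the knockout, against 10.17, 10.64 and 10.49 in the wild type, with no overlap. The log2 change was 0.48 (SE 0.11, adjusted p = 0.0553), just outside the threshold. It passed with the replicate number as a block (adjusted p = 0.0136). That pairing was inferred from these same data and not from the labels, so calls with the block, here and below, are not separate support. H2bc8, another H2B gene, had levels of 10.01, 10.19 and 10.10 in the knockout, against 9.68, 9.94 and 9.70 in the wild type. Its change of 0.33 (SE 0.08, adjusted p = 0.0766) did not pass, and passed with the block (adjusted p = 0.0175). H4c6, an H4 gene, was at 11.48, 11.37 and 11.69 in the knockout, against 10.86, 11.27 and 11.21 in the wild type. Its change of 0.40 (SE 0.12, adjusted p = 0.123) did not pass, and passed with the block (adjusted p = 0.0479). That call was lost again when the shared probe sets were added to the blocked fit (adjusted p = 0.0672). With the block, 4 histone genes rose and 1 fell, against 2.11% and 4.46% of all genes, or 6.57% in either direction.

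The promoters of these genes carry the sequence elements for which each histone class is known. The promoters of H2ac4, H2bc3, H2bc8, H2bc18 and H4c6 are shown, H2bc18 being on chromosome 3. These are the gene that rose and the 4 with the next largest changes among the 9 histone genes higher on every knockout array. They run from 250 bases before to 50 bases after the annotated start, on the strand of the gene, from RefSeq on build GRCm38.p6. In the H2A and H2B genes, capitals mark the octamer ATTTGCAT bound by Oct factors, the CCAAT box CCAAT and the TATA box core TATAA. Each was marked on either strand and at any position, and none of the marked motifs overlap. A mark is thus a match of letters alone, as for TTATA 215 bases before the start in H2bc8 and TATAA 10 bases before it in H2bc3. In H4c6, capitals mark GGTCCG, part of the H4 site bound by the factor Hinfp.
H2ac4 promoter, chr13:23750838-23751137, plus strand: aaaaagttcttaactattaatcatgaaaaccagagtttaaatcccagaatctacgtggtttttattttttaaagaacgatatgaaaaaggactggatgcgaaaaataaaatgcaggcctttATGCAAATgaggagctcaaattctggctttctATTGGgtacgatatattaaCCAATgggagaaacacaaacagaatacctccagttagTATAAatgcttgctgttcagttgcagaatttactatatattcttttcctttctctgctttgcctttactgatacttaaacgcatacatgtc
H2bc3 promoter, chr13:23746484-23746783, plus strand: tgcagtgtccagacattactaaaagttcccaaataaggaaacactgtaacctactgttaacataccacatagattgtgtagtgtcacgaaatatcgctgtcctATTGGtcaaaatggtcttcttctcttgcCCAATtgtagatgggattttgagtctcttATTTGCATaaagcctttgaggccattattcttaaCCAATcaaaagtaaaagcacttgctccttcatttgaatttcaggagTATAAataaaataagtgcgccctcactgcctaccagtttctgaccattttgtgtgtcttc
H2bc8 promoter, chr13:23571150-23571449, plus strand: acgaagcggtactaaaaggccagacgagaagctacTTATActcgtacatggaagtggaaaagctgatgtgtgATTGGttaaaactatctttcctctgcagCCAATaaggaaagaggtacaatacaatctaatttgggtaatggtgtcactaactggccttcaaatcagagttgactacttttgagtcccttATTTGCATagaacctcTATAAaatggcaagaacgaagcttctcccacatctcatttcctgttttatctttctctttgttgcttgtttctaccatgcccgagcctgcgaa
H2bc18 promoter, chr3:96269450-96269749, plus strand: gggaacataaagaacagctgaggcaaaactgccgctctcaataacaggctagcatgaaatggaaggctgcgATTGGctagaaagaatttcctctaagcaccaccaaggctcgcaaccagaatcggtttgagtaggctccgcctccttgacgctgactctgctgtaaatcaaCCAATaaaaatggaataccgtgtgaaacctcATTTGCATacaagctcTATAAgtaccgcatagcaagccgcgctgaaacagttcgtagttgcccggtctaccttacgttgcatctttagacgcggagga
H4c6 promoter, chr13:23551619-23551918, minus strand: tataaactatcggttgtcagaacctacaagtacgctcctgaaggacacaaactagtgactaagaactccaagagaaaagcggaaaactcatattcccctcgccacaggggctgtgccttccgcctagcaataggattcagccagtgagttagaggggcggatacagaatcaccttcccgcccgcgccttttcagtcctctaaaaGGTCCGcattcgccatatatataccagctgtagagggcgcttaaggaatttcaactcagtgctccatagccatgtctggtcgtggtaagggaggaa
In H2ac4 the octamer lay in the reverse direction beginning 129 bases before the start, and in H2bc3, H2bc8 and H2bc18 in the forward direction at 90, 59 and 48 bases. In H4c6 the capitals begin 46 bases before the start.

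Promoter entries were found for 23 of the 27 histone genes, and H2bc21, H2bc4, H3c7 and H4c14 had no entry. All motifs were searched on both strands. The octamer was in 3 of 4 H2A promoters, 5 of 7 H2B promoters and in no promoter of the 5 H1, 2 H3 and 5 H4 genes. Over all promoters of the class, measured or not, the octamer was in 6 of 17 for H2A and 7 of 15 for H2B. It was in 1.74% of all 32851 mouse promoters of the same length. The promoter windows of H2ac8 and H2bc8 overlap, as do those of H2ac1 and H2bc1, so such pairs can share 1 octamer. CCAAT was in all H1, H2A, H2B and H3 promoters of the set and in 2 of 5 H4 promoters, against 37.4% of all promoters. The letters TATAA were in 18 of 23 at any position, against 24.9%, and the H4c6 match lay at the far edge of its window. The letters AAACACA, known as the H1 box, were in 4 of 5 H1 promoters, 2 H2A and 2 H2B promoters, against 7.18% of all. GGTCCG was in all 5 H4 promoters and in that of H2bc9, against 8.25%. The 8 histone genes with the octamer had changes of 0.68 (H2ac4), 0.48 (H2bc3), 0.33 (H2bc8), 0.27 (H2bc14 and H2bc18), 0.07 (H2ac1 and H2bc1) and 0.04 (H2ac8). Of these, only H2ac4 passed, and H2ac8 lay near the lowest values of the arrays. The part of the octamer in these changes was not tested.

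Among the remaining H2B genes, H2bc18 of chromosome 3 was at 9.33, 9.43 and 9.43 in the knockout, against 8.90, 9.31 and 9.19 in the wild type. Its groups did not overlap, and the change of 0.27 (SE 0.10, adjusted p = 0.226) did not pass. H2bc14 had nearly the same change, 0.27 (SE 0.13, adjusted p = 0.366), with overlapping groups. H2bc4 was at 11.91, 11.99 and 12.13 in the knockout, against 11.95, 11.96 and 11.82 in the wild type. H2bc9, H2bc4 and H2bc22 had changes of 0.17 (SE 0.09), 0.10 (SE 0.08) and 0.01 (SE 0.08), and their groups overlapped. The H2B genes other than H2bc21 thus ran from 0.01 to 0.48, all 8 above 0.

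All 6 H4 genes, which encode the same core protein, lay above 0, between 0.13 and 0.40, and none passed (3 at an unadjusted p under 0.05, which 7.82% of all genes reached as increases). H4c4 was at 13.83, 13.92 and 13.84 on the knockout arrays and at 13.75, 13.71 and 13.66 on the wild-type arrays. Its groups did not overlap, but the change of 0.16 (SE 0.06, adjusted p = 0.242) was small. H4c9 also had groups apart, with 8.76, 8.68 and 8.79 in the knockout, 8.61, 8.56 and 8.64 in the wild type and a change of 0.14 (SE 0.06, adjusted p = 0.290). For H4c3, H4c8 and H4c14 the changes were 0.20 (SE 0.11), 0.18 (SE 0.10) and 0.13 (SE 0.07), with overlapping groups.

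No linker histone gene passed. H1f2 was at 12.23, 12.48 and 12.50 in the knockout, against 12.24, 12.21 and 12.33 in the wild type, a change of 0.14 (SE 0.08, adjusted p = 0.454). H1f1 had the largest change of the class at 0.24 (SE 0.15, adjusted p = 0.471), with levels of 11.15, 11.36 and 11.41 in the knockout, against 10.74, 11.39 and 11.07 in the wild type. The highest wild-type array of H1f1 lay among the knockout arrays. Without wild-type replicate 1 the H1f1 change was 0.079 and no longer the largest of the class. H1f3 was the H1 gene with groups apart, at 7.43, 7.45 and 7.60 in the knockout, against 7.40, 7.35 and 7.30 in the wild type, and its change of 0.14 (SE 0.07, adjusted p = 0.337) did not pass. H1f5 was at 0.16 (SE 0.14). No H1 gene reached an unadjusted p under 0.05.

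For H3, 3 genes had a probe set of their own. H3c7 was at 5.46, 5.49 and 5.54 in the knockout, against 5.24, 5.40 and 5.32 in the wild type, with no overlap and a change of 0.17 (SE 0.07, adjusted p = 0.226). Both groups lay near the lowest values of the arrays. H3c4 was at 7.97, 8.02 and 8.22 in the knockout, against 7.99, 7.80 and 8.03 in the wild type, a change of 0.13 (SE 0.09, adjusted p = 0.531) with overlapping groups. H3c15 was at 7.13, 7.77 and 7.56 in the knockout, against 8.004, 7.61 and 7.39 in the wild type, and its change of -0.18 had the largest SE of any member (0.18) and did not pass. Among the H2A genes other than H2ac4, H2ac15 was at 12.48, 12.73 and 12.75 in the knockout, against 12.40, 12.68 and 12.41 in the wild type, a change of 0.16 (SE 0.10, adjusted p = 0.499). H2ac8 was at 0.04 (SE 0.06) with levels of 5.24 to 5.40 over all arrays.

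The histones of the testis did not pass, with H1f6 at -0.09 (SE 0.08), H2ac1 at 0.07 (SE 0.08) and H2bc1 at 0.07 (SE 0.08). Their median was 0.07. H1f6 was at 7.30, 7.06 and 7.37 in the knockout, against 7.30, 7.37 and 7.33 in the wild type, so that 1 knockout array was low. The members of chromosome 13 (23 genes) had a median of 0.16, with 22 above 0, and the members of chromosome 3 (4 genes) had a median of -0.03, with 2 above 0. The chromosome 3 group holds H2bc21 and H3c15, and its median was 0.08 without knockout replicate 1. The median of chromosome 13 was 0.10 without knockout replicate 3. Most histone genes are short, and the 3 with the longest annotated spans were H2bc21 (2667 bases), H2bc22 (14079) and H2bc4 (8282). Their changes were -0.78, 0.01 and 0.10.

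Class medians were close to each other. The median log2 change was 0.14 for H1, 0.12 for H2A, 0.17 for H2B, 0.13 for H3 and 0.17 for H4. With 1 array left out these medians ran from 0.079 to 0.23 for H1, 0.061 to 0.19 for H2A, 0.10 to 0.24 for H2B, 0.057 to 0.18 for H3 and 0.12 to 0.21 for H4. The lowest values came without wild-type replicate 1 for H1 and H2A and without knockout replicate 3 for H2B, H3 and H4. Means over the H4 genes were 10.78, 10.79 and 10.94 on the knockout arrays and 10.56, 10.71 and 10.64 on the wild-type arrays, and did not overlap. For H2B the means were 9.97, 10.08 and 10.11 in the knockout, against 9.85, 10.10 and 9.91 in the wild type, and overlapped. Without H2bc21 the H2B median was 0.22, and it was 0.27 over the genes that passed a filter at the median level. For H1 the means were 9.79, 9.84 and 10.02 in the knockout, against 9.66, 9.87 and 9.77 in the wild type. For H2A they were 8.95, 9.15 and 9.16 in the knockout, against 8.72, 8.98 and 8.85 in the wild type. For H3 they were 6.85, 7.09 and 7.10 in the knockout, against 7.08, 6.94 and 6.91 in the wild type. The class means of H1, H2A and H3 also overlapped between genotypes. Between arrays of the same replicate number, the knockout mean was higher in all 3 pairs for H2A and H4, in 2 of 3 for H1, H2B and H3. Differences between classes were smaller than the range within H2A or H2B and were not tested.

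**Figure D3:**
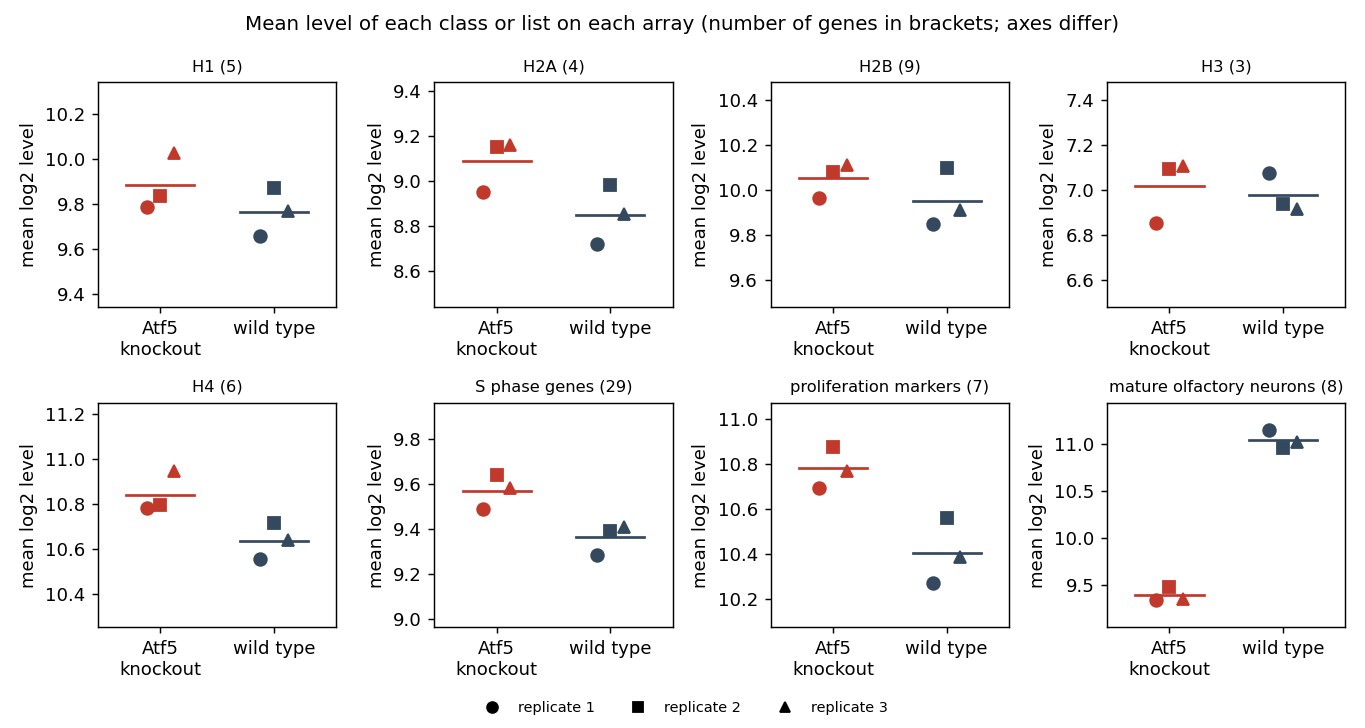
Mean log2 level (y axis, a scale for each panel) over the genes of each histone class and of 3 other lists, on each of 3 knockout and 3 wild-type arrays, with lines at the group means and symbols by replicate number. Replicate 1 is the lowest array of its genotype for H1, H2A, H2B and H4, and the means of mature olfactory neuron markers run the other way, with 9.34 to 9.48 in the knockout, against 10.97 to 11.15 in the wild type.

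Single arrays bore on these values. Knockout replicate 3 gave the highest value of 20 of the 27 histone genes, and wild-type replicate 1 gave the lowest value of 17. Wild-type replicate 1 was also low for skeletal muscle genes, with list means of 9.97, 10.16 and 10.32 on the knockout arrays, against 8.89 on that array and 10.08 and 10.01 on the other wild-type arrays. All 8 muscle genes lay above 0, against 53% of all genes, and none passed. An unadjusted p under 0.05 was found for 1, against 16.1% of all genes, and 2 rose with the block, against 2.11%. Acta1 and Ckm, the actin and creatine kinase of muscle, were at 0.59 (SE 0.31) and 0.38 (SE 0.28). Myh3, the embryonic myosin heavy chain, was at 0.96 (SE 0.34) and had an adjusted p of 0.205, or 0.0438 under the block. Enamel genes lay the other way, with list means of 8.32, 7.85 and 8.56 in the knockout, against 10.41, 10.14 and 8.80 in the wild type. Of 5 enamel genes 2 fell, against 3.24% of all genes, and 3 with the block, against 4.46%. Enam and Amelx, proteins of the enamel matrix, changed by -2.47 (SE 0.51, adjusted p = 0.0301, up to 0.131 without 1 array) and -1.98 (SE 0.46, adjusted p = 0.0499, up to 0.177 without 1 array). The part of muscle and tooth tissue in the histone values was not tested. Without wild-type replicate 1, the median over the 27 histone genes was 0.13, and without knockout replicate 3 it was 0.10. No list marker was at 0, as the lowest value of the table was 4.50. By limma, 0 genes passed among 7 markers of olfactory precursors (median 0.09, 2 at an unadjusted p under 0.05), 6 of sustentacular cells (-0.12, 1), 6 of ciliated cells (0.03, 0), 3 of erythroid cells (-0.04, 1), 8 of cartilage (0.04, 0) and 8 of myeloid cells (0.06, 2). Over all genes 16.1% had an unadjusted p under 0.05. With the block 1 gene fell among the sustentacular markers (4.46% of all genes) and 1 rose among the erythroid markers (2.11% of all genes). These were Cyp2g1, an olfactory cytochrome P450, at -0.36 (SE 0.09, adjusted p = 0.0760, or 0.0114 under the block), and Alas2, the erythroid enzyme of haem synthesis, at 0.39 (SE 0.17, adjusted p = 0.307, or 0.00982 under the block). Further markers of these lists that did not pass in either fit were Neurog1 (0.08), Neurod1 (0.04) and Pax6 (0.18) of precursors, Cyp1a2 (-0.33) of sustentacular cells, and Foxj1 (-0.0041), Dnah5 (0.18) and Dnah9 (0.21) of ciliated cells. The same held for Slc4a1 (-0.04) of erythroid cells, Col2a1 (-0.0065) and Acan (0.16) of cartilage, and Ptprc (-0.0012), Csf1r (0.17) and Cd68 (0.27) of myeloid cells.

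The probe sets that name several histone genes lay on the same side of 0. All 22 had a change above 0, with a median of 0.20, and none passed by limma when they were added to the fit. In that fit 0.433% of all rows rose, and 8 of the 22 had an unadjusted p under 0.05. In the fit of the 19937 genes without them, 53% lay above 0 and 16.1% had an unadjusted p under 0.05. Of the 22 probe sets, 9 name a set of 12 H3 genes, 6 name 14 or 15 genes that are H2B apart from the symbol H4bc24, 5 name H4 genes and 2 name mixed classes. They share targets with each other and with the genes named above, and are not independent of each other. An H3 row was at 7.20, 7.53 and 7.50 in the knockout, against 6.44, 7.11 and 6.77 in the wild type, a change of 0.64 (SE 0.16, adjusted p = 0.0780). An H2B row was at 12.20, 12.71 and 12.54 in the knockout, against 11.59, 12.04 and 12.06 in the wild type, a change of 0.58 (SE 0.16, adjusted p = 0.0969). The row of H4c17 and H4c11 was at 8.14, 8.78 and 8.28 in the knockout, against 7.66, 7.94 and 7.89 in the wild type, a change of 0.57 (SE 0.16, adjusted p = 0.105). The other rows of the same 12 H3 genes ran from 0.04 to 0.32. The other H2B rows ran from 0.15 to 0.24 and the other H4 rows from 0.09 to 0.25. The H3 and H4 rows given were also the lowest in level of their class. The 3 rows given had the largest change of their class, and the groups did not overlap in any of them. With the replicate number as a block, chosen after seeing the data for these rows, 4 rows rose, these 3 and 1 more H3 row, against 1.64% of all rows.

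**Figure D4:**
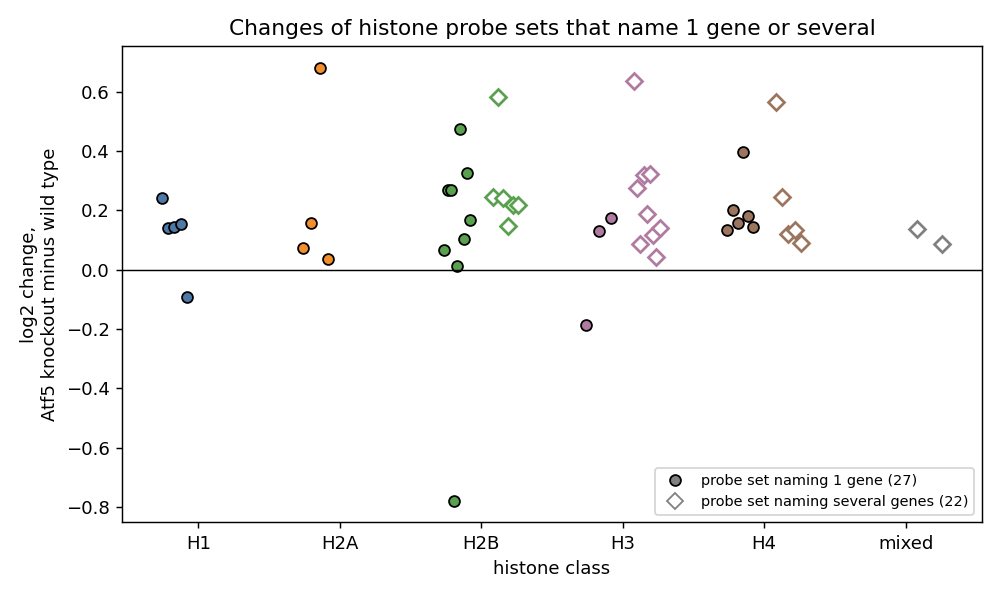
Log2 change (knockout minus wild type, y axis) of 27 probe sets that name 1 histone gene (circles) and 22 that name several (diamonds), by class (x axis). All diamonds lie above 0, between 0.04 and 0.64, and the circle of H2bc21 at -0.78 is far below the other circles.

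The lists of genes that accompany histone synthesis were drawn up from textbook knowledge. Of 29 measured S phase genes, 2 rose, 0 fell and 27 did not pass. The median was 0.19 and all 29 lay above 0, against 53% of all genes. Over all genes 0.502% rose in this fit. Gins1, a subunit of the replicative helicase complex, rose by 0.37 (SE 0.08, adjusted p = 0.0420), and Mcm4, another helicase subunit, by 0.29 (SE 0.06, adjusted p = 0.0400). When 1 array was left out, Mcm4 passed in no case (adjusted p from 0.0551 to 0.170) and Gins1 passed only without wild-type replicate 2 (0.0401 to 0.157). Mcm4 also did not pass after quantile normalization (adjusted p = 0.0704). Pcna, the sliding clamp, was at 0.23 (SE 0.07, adjusted p = 0.113), but averaging its probe sets gave 0.089 (adjusted p = 0.753). Mcm2, a helicase subunit, was at 0.21 (SE 0.08, adjusted p = 0.197). List means were 9.49, 9.64 and 9.58 on the knockout arrays and 9.29, 9.39 and 9.41 on the wild-type arrays. With the block 9 S phase genes rose, against 2.11% of all genes. Of 7 proliferation markers, 2 rose and 5 did not pass, against 0.502% of all genes that rose. Mki67, the antigen of dividing cells, was at 0.29 (SE 0.07, adjusted p = 0.0779). Top2a, a DNA topoisomerase, was at 0.33 (SE 0.09, adjusted p = 0.0772), and averaging its probe sets gave 0.21. Plk1, which drives mitosis, was higher by 0.57 (SE 0.11, adjusted p = 0.0203, up to 0.0851 without 1 array). Bub1b, a spindle checkpoint kinase, was higher by 0.30 (SE 0.06, adjusted p = 0.0353, up to 0.126 without 1 array). With the block all 7 rose, against 2.11% of all genes. Their list means were 10.70, 10.88 and 10.77 in the knockout, against 10.27, 10.56 and 10.39 in the wild type. The histone values and these lists come from the same arrays, and the part of cell division in the histone values was not tested.

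The machinery that makes and shapes histone mRNA did not pass in either direction. Of 21 measured genes for its transcription and 3' end processing, 0 passed by limma. An unadjusted p under 0.05 was found for 4, against 16.1% of all genes. The median over the 21 genes was 0.06, and ran from 0.028 without knockout replicate 1 to 0.12 without knockout replicate 3. Slbp, the stem-loop binding protein, was at 9.73, 9.74 and 9.53 in the knockout, against 9.62, 9.80 and 9.67 in the wild type, a change of -0.03 (SE 0.08). Npat, the coactivator of histone gene transcription, was at 0.19 (SE 0.08, adjusted p = 0.299). Hinfp, the factor that binds the H4 site, was at 9.35, 9.34 and 9.18 in the knockout, against 9.05, 9.07 and 9.11 in the wild type, a change of 0.21 (SE 0.07, adjusted p = 0.150). Of 21 histone chaperones, 0 passed by limma and 2 had an unadjusted p under 0.05, against 16.1% of all genes. Asf1b, a chaperone of H3 and H4, was at 0.26 (SE 0.07, adjusted p = 0.0766), and Chaf1a and Chaf1b, subunits of chromatin assembly factor, were at 0.01 (SE 0.08) and 0.22 (SE 0.12). The direction of Chaf1a turned after quantile normalization.

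Histone genes outside the clusters, whose mRNAs are made with a poly(A) tail, gave 0 calls of 9 measured by limma, with a median of 0.09. An unadjusted p under 0.05 was found for 3 of them, against 16.1% of all genes. Cenpa, the H3 variant of centromeres, was at 10.23, 10.40 and 10.34 in the knockout, against 9.87, 10.13 and 9.85 in the wild type. The groups did not overlap, and the change of 0.37 (SE 0.09, adjusted p = 0.0550) passed with the block (adjusted p = 0.0139). The H2A variants H2az1 and H2az2 were at 0.07 (SE 0.07) and 0.17 (SE 0.08), and neither passed, while averaging the probe sets of H2az1 gave 0.12. With the block, 3 of the 9 rose, against 2.11% of all genes.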

How the data were processed

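RNA was measured on 6 single-colour arrays, 3 per genotype, grouped by sample title. RNA was isolated with Trizol and RNeasy columns, per the labels' protocols, converted to cDNA with the Ambion WT Expression Kit and labelled with biotin. The authors deposited 1 table, whose values of 4.50 to 14.7 fit the log2 scale. RMA, affy and limma are named in the submitters' processing notes, with versions not given in the sources used here. Quantile steps in RMA, as generally defined, hide a change shared by most transcripts. Of 34760 rows, 21640 had 1 gene symbol, 1321 several and 11799 none in GEO's platform annotation. The highest-mean probe set per gene left 19937 genes, with no filter on dim ones, and 0 columns of other samples. The members, lists and tests were chosen with earlier results of these data known.

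Genotypes were compared with limma 3.58.1 (lmFit, eBayes) in R 4.3.3. P-values were 2-sided, adjusted by Benjamini and Hochberg across the 19937 genes, and called under 0.05. SE is the moderated standard error, intervals are at 95%, and the number of arrays limits precision. The procedure was tested on simulated data. Arrays of the same replicate number deviated together (correlations of 0.295, 0.122 and 0.234), so the numbers pair the samples by the rule used, from the data and not from the labels; values with that block are given where they change a call. The labels call the samples biological replicates. Named were Atf5, the histone genes, and from each list the first 2 measured, up to 4 past the threshold with the largest change and the one with the lowest p; Bola1 and Sv2a were chosen later. Gene names and order came from the reference table of GRCm38.p6.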

Additional observations from a re-analysis of the deposited data

How the results depend on the processing

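The fall of H2bc21 passed under every alternative run, with log2 changes of -0.85 to -0.70. The rise of H2ac4 passed under those that kept the gene, apart from 3 of the 6 that leave out 1 array, and the filter at the median level, which drops it, left 0 histone genes that rose. The count of histone genes that rose was 4 with the replicate block, 6, shared probe sets of histone symbols counted in, with these and the block together, 2 with a trended and robust prior and 0 to 3 without 1 array (0 without wild-type replicate 1 and without either of knockout replicates 2 and 3). The count that fell was 1 throughout. Over all genes, 421 rose with the block, 348 with shared probe sets and the block, 60 with the median filter and 27 to 127 without 1 array; 358 fell with the 30th percentile filter, 226 with the median filter and 383 to 584 without 1 array. S phase genes gave 9 rises with the block, 7 with shared probe sets and the block, 1 after quantile normalization, 1 with the median filter and 0 to 2 without 1 array. Proliferation markers gave 7 with the block, with or without shared probe sets, and 0 to 3 without 1 array. Histone genes outside the clusters gave 3 with the block, with or without shared probe sets, 1 with the trended prior and 0 to 1 without 1 array. The median change on chromosome 3 was 0.13 under either filter and -0.10 to 0.076 without 1 array. The median of histone genes outside the clusters was 0.17 with the median filter and 0.064 to 0.16 without 1 array, and that of chaperones 0.014 to 0.089. Chaf1a was at -0.00063 after quantile normalization. Without 1 array the direction turned for H1f6 (-0.15 to 0.0026), H2ac8 (-0.00060 to 0.069), H2bc22 (-0.043 to 0.061), Slbp (-0.073 to 0.038) and Chaf1a (-0.036 to 0.093). The cause was not tested, other than the fewer genes or arrays that some settings hold.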
